A study of Mus musculus with 9 samples.

Results

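The genes described here encode 10 lectin-like receptors that were first known from natural killer (NK) cells and that activated T cells can also carry: Klrg1, Klrk1, Klrd1, Klrc1, Klrc2, Klrb1b, Klrb1c, Klrb1f, Klre1 and Klra8. They were chosen by name, by matching the Ensembl identifiers of the deposited count table to these symbols. The rule uses no measured value, although the set was picked with earlier results of these data known. All 10 were found among the 29229 genes of the table, where they make up 10 of the 29 genes whose symbol starts with Klr, and all 10 passed the filter on low counts. The series holds 9 RNA-seq libraries of mouse T cells in 3 groups of 3. Naive libraries came from splenic T cells of healthy C57BL/6 mice that received no transplant. Syngeneic libraries came from B6.SJL-Ptprca Pepcb/BoyJ recipients, which share the donor's H-2b major histocompatibility type and carry CD45.1. These recipients were given 9.5 Gy of irradiation and 8500000 T cells. Allogeneic libraries came from CByJ.SJL(B6)-Ptprca/J recipients, which have the H-2d type and CD45.1, and these were given 8 Gy in a split dose and 1000000 T cells. Both kinds of recipient also received 5000000 T-cell-depleted marrow cells, and marrow and T cells alike came from C57BL/6 (CD45.2) donors. Female mice aged 8 to 12 weeks were used throughout. Live cells positive for CD3 and CD45.2 were sorted at day 7, and each transplant library pooled 2 to 4 recipients. The sort does not separate infused T cells from CD45.2 progeny of the marrow, and the strain, the irradiation and the T cell dose differ together between the transplant groups, so that their parts cannot be told apart.

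The killer cell lectin-like receptors are C-type lectin-fold proteins of the cell surface, encoded side by side in the NK gene complex. CD94, the product of Klrd1, pairs with NKG2A (Klrc1) into an inhibitory receptor or with NKG2C (Klrc2) into an activating one, and both bind the class Ib molecule Qa-1 (H2-T23). NKG2D, the product of Klrk1, is an activating receptor for stress-induced ligands such as those of the Ulbp1 and Raet1 genes and signals through the adaptor Hcst (DAP10). KLRG1 is an inhibitory receptor for cadherins and a standard marker of short-lived effector CD8 T cells. The Klrb1 genes encode the NKR-P1 receptors: NKR-P1B (Klrb1b) is inhibitory and binds Clr-b (Clec2d), Klrb1c encodes NK1.1, the classical NK cell marker of this strain, and NKR-P1F (Klrb1f) binds the product of Clec2i. Klre1 encodes a receptor that pairs with Klri1 or Klri2. Klra8 encodes Ly49H, an activating receptor known from NK cells that signals through Tyrobp (DAP12).

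All 10 genes lie on chromosome 6 of GRCm38 and are annotated as protein coding. Klrg1 stood apart from the rest, at chr6:122270596-122282882 on the minus strand. The neighbours Klre1 (chr6:129577905-129585827, plus strand), Klrd1 (chr6:129591782-129598775, plus strand), Klrk1 (chr6:129610323-129623864, minus strand), Klrc2 (chr6:129647496-129660689, minus strand) and Klrc1 (chr6:129666015-129678973, minus strand) follow one another. The NKR-P1 genes Klrb1c (chr6:128778485-128789215, minus strand), Klrb1b (chr6:128813706-128826331, minus strand) and Klrb1f (chr6:129045901-129057464, plus strand) lie before them, and Klra8 (chr6:130115226-130129898, minus strand) lies after them. Several of these genes are copies of each other, which bears on how far their read counts can be told apart. Of the distinct 50-base stretches of the annotated Klrc1 transcripts, 38.6% also occurred in another gene of the table, mostly in Klrc2, and for stretches of 100 bases the share was 14.6%. For Klrc2 these shares were 16.3% and 7.09%, and for Klra8 they were 33.1% and 14.4%, mostly with Klra14-ps. Klrb1b shared 5.77% of its 50-base stretches and none of 100 bases, and Klrb1c shared 5.73% and 0.295%. Klrg1, Klrk1, Klrd1 and Klrb1f shared 0 stretches of either length, and Klre1 shared 0.252% of 50 bases. Klrb1b and Klrb1c also share 599 and 413 exon bases with Gm44511, a protein-coding model on the same strand that is not in the count table. The sources used here do not say how reads with several alignments or on overlapping genes were handled.

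The coding stretches below show the limit for the closest pairs. Each is the middle 120 bases of the longest gap-free block in the coding alignment of its pair, 5′ to 3′, from the annotated transcripts. Capitals mark the bases that differ. Klrc1 and Klrc2, whose whole coding sequences were 81% identical, differed at 2 of the 120 bases, so a read from most of this stretch fits both genes.
Klrc1, coding bases 368 to 487: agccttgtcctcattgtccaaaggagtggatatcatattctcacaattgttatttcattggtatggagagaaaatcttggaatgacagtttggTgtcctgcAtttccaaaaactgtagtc
Klrc2, coding bases 350 to 469: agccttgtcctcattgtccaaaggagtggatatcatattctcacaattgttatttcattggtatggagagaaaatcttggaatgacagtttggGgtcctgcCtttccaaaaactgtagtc
Klrb1b and Klrb1c, whose coding sequences were 71.4% identical, differed at 6 of the 120 bases of their stretch.
Klrb1b, coding bases 400 to 519: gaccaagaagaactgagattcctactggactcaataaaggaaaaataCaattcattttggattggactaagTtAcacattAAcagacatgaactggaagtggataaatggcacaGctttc
Klrb1c, coding bases 544 to 663: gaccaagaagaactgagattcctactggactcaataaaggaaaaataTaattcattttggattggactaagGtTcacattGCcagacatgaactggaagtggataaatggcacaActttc

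Windows placed at the annotated starts of the same pairs were also compared. Promoter windows of 300 bases, from 250 before to 50 after the transcription start, were taken from RefSeq on GRCm38.p6, which held windows for 8 of the 10 genes and none for Klrg1 and Klrd1. They were searched on both strands for TGTGGT, a core bound by RUNX factors, GGTGTGA, a T-box site, and CAGGTG, an E-box bound by ZEB and TCF factors. The windows of Klrb1b and Klrb1c, which had very different levels in naive and syngeneic cells, were 43.8% identical, and those of Klrc1 and Klrc2 were 45.7% identical. These values, from end-to-end alignments, depend on where the starts are annotated. A shared run of bases lies nearer the 3′ end in the Klrb1c window than in the Klrb1b window. The identities therefore do not show how far the upstream sequences have diverged. Capitals mark the matches, read on either strand, and each window is printed 5′ to 3′ along the minus strand, on which all these genes lie.
Klrb1b, chr6:128826266-128826565: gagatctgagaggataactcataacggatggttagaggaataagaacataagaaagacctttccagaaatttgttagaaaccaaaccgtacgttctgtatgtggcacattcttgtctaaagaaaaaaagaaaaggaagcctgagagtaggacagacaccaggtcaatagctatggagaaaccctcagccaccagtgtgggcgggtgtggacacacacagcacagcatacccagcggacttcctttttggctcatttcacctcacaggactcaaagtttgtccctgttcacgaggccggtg
Klrb1c, chr6:128788592-128788891: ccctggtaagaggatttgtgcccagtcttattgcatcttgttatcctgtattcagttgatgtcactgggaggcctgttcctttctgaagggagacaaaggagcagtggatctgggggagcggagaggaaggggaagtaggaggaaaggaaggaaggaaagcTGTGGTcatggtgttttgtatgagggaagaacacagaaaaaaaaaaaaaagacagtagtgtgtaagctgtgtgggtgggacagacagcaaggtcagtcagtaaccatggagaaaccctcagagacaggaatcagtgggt
Klrc1, chr6:129678924-129679223: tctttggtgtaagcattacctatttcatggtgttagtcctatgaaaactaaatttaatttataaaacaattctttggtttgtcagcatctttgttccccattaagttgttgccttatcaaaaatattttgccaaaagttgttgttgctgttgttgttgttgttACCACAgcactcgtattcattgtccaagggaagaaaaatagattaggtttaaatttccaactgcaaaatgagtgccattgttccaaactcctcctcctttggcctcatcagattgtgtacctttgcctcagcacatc
Klrc2, chr6:129660547-129660846: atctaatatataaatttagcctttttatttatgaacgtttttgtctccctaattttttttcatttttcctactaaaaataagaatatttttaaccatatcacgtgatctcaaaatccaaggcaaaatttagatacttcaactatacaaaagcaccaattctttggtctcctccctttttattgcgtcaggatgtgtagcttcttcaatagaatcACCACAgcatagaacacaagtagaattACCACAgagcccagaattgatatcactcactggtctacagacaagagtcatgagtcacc
The RUNX core matched 1 time in Klrb1c, 1 time in Klrc1 and 2 times in Klrc2, and none of the 3 motifs matched in Klrb1b. Klrk1 and the first of 2 starts of Klre1 also held 1 RUNX core each, while Klrb1f and Klra8 held no match. The T-box letters matched in none of the 12 windows of these 8 genes, and the E-box matched only at the second start of Klrc2, in a window that overlaps the one shown. Over all 32851 promoter windows of this length, 16.8% held the RUNX core, 3.98% the T-box letters and 20.2% the E-box. A match is a run of letters and no measured binding site.

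Total counts per library ran from 103953932 to 176678189. The 2 genes that mostly collect ribosomal RNA reads, Gm26917 and Gm42418, took 15.8% to 18.8% of them in naive and 19.4% to 22.4% in syngeneic libraries. In allogeneic replicates 1, 2 and 3 they took 17.2%, 9.06% and 7.87%. These reads are part of the totals, so levels of other genes are raised somewhat in allogeneic replicates 2 and 3 relative to the other libraries. Levels are counts per 1000000 counts of a library (CPM), and differences are log2 fold changes with their standard errors from 1 edgeR quasi-likelihood fit over all 9 libraries, and a gene is called where its p, adjusted by Benjamini-Hochberg over the 19609 genes tested, is under 0.05. Cd3e, a T cell receptor component, lay between 406 and 717 CPM in every library, whereas Ncr1, the defining NK cell gene, lay between 0.148 and 2.07 CPM. Ncr1 averaged 0.271 CPM in naive, 0.634 CPM in syngeneic and 1.72 CPM in allogeneic cells. The summed levels of 10 NK cell marker genes were 10.4 to 13.5 CPM in naive, 19.8 to 52.3 CPM in syngeneic and 81 to 94.2 CPM in allogeneic cells, and none of the 10 was at 0 in all libraries of a group. Of these markers 6 were higher in allogeneic than in syngeneic libraries and 4 were not called (Tyrobp, Styk1, Fcgr3 and Klri2), beside 24.3% of all genes tested called higher. Some of them (Tyrobp, Fcer1g, Fcgr3) are also made by myeloid cells, and the part of NK cells in the results was not tested. Syngeneic libraries also held erythroid genes, at 1978 to 5048 CPM summed over 8 markers, against 1.46 to 1.77 CPM in naive and 12.8 to 35.9 CPM in allogeneic ones. Syngeneic replicate 1 had the least of these and was also the lowest of its group for 9 of the 10 receptors. Summed markers of gamma delta T cells, which can also carry such receptors, were 41.9 to 50 CPM in naive, 12.9 to 15.2 CPM in syngeneic and 3.22 to 3.76 CPM in allogeneic cells. Fewer cells carrying a receptor and less of its RNA per cell cannot be told apart in such bulk libraries.

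The 3 comparisons ask how these receptor genes differ between T cells that met a mismatched host, T cells that met a matched host and T cells at rest. In allogeneic T cells 7 of the 10 genes were higher than in syngeneic ones (Klrg1, Klrk1, Klrd1, Klrc1, Klrc2, Klrb1b and Klrb1c), 2 were lower (Klre1 and Klra8) and Klrb1f was not called. Over all genes tested 24.3% were called higher and 20.7% lower in that comparison. Against naive cells 9 of the 10 were higher in allogeneic libraries and Klra8 was lower, with 31.8% of all genes called higher and 25.9% lower. Against naive cells in syngeneic libraries 7 were higher, Klrb1c was lower, and Klrg1 and Klrb1b were not called, with 22.4% of all genes called higher and 19.5% lower. The median log2 fold change of the 10 genes was 1.69 for allogeneic against syngeneic, 2.28 for allogeneic against naive and 0.95 for syngeneic against naive, beside -0.02, -0.01 and 0.01 over all genes tested. These medians were the same with Klra8 at its bound in place of its fitted value. The libraries of the groups did not overlap for 6, 9 and 7 of the 10 genes in these comparisons, and for 52.7%, 65.1% and 56.5% of all genes tested, so separation alone was common in these data. The comparisons share libraries (both against naive share the naive ones), so their counts are not independent of each other.

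**Figure D1:**
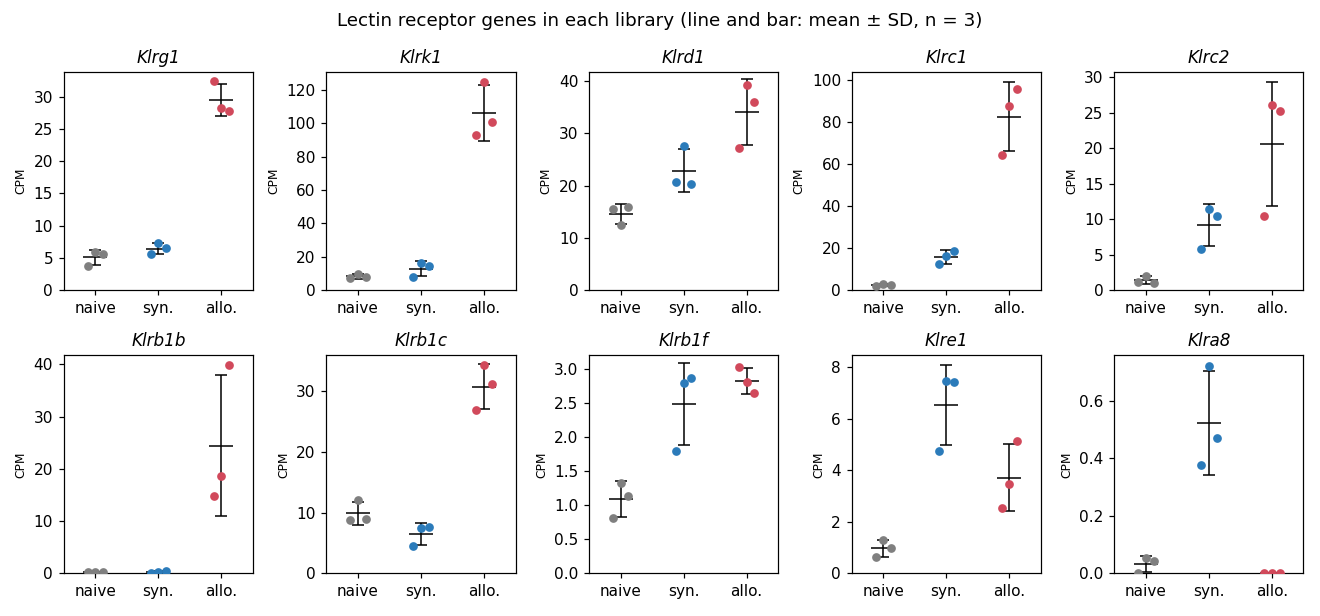
CPM of the 10 receptor genes (vertical axis, linear, scaled for each gene) in each library of the naive, syngeneic (syn.) and allogeneic (allo.) groups; points are libraries, the long line is the mean and the bar the SD of 3 libraries. Klrg1, Klrk1, Klrc1, Klrb1b and Klrb1c have all 3 allogeneic libraries above the other 6, Klre1 is highest in syngeneic libraries, and Klra8 has no count in the allogeneic ones.

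**Figure D2:**
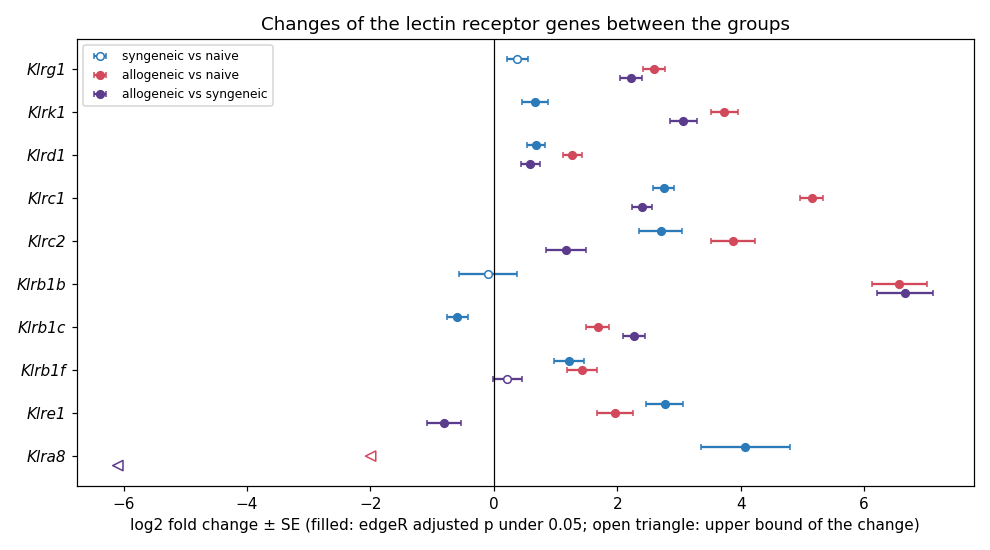
Log2 fold changes with standard errors (horizontal axis) of the 10 genes in the 3 comparisons, from edgeR; filled points have an adjusted p under 0.05 and open circles do not. Open triangles give the upper bound of the change of Klra8, for which the allogeneic libraries had no count. Klrb1b shows the highest fold changes (6.66 and 6.57) with no call between syngeneic and naive, and Klrb1c is the gene called lower in syngeneic than in naive cells.

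Klrg1, the cadherin-binding inhibitory receptor, stood at 3.75, 5.84 and 5.65 CPM in the naive libraries, at 5.56, 7.24 and 6.53 CPM in the syngeneic ones and at 32.4, 28.3 and 27.8 CPM in the allogeneic ones. All 3 allogeneic libraries were far above the other 6, and naive and syngeneic libraries overlapped. Its log2 fold change was 2.22 ± 0.18 (SE) for allogeneic against syngeneic (edgeR adjusted p = 2.75e-06) and 2.60 ± 0.18 for allogeneic against naive (edgeR adjusted p = 3.32e-07). Between syngeneic and naive cells the change was 0.38 ± 0.17 and was not called (edgeR adjusted p = 0.105), with a nominal 95% interval from 0.04 to 0.72. That interval applies a normal quantile to an SE derived from the F statistic of the test. It ignores the few degrees of freedom and is too narrow: it leaves out 0 although the unadjusted edgeR p was 0.0522. Its known ligand genes were scarce in these cells. E-cadherin (Cdh1) averaged 1.39 CPM in naive, 1.2 CPM in syngeneic and 2.58 CPM in allogeneic cells and was higher in allogeneic than in syngeneic ones by 1.12 ± 0.23 (edgeR adjusted p = 0.00201). Cdh2 and Cdh4 did not pass the filter on low counts.

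Klrd1, the CD94 chain shared by the NKG2 heterodimers, had the smallest called changes of the 10 genes in allogeneic libraries. It stood at 15.5, 12.4 and 15.8 CPM in naive, 20.7, 27.6 and 20.2 CPM in syngeneic and 27.1, 39.2 and 35.9 CPM in allogeneic cells. The transplant libraries were all above the naive ones, and allogeneic replicate 1 fell within the syngeneic range. The log2 fold change was 0.59 ± 0.15 for allogeneic against syngeneic (edgeR adjusted p = 0.00786), 1.27 ± 0.15 for allogeneic against naive (edgeR adjusted p = 2.56e-05) and 0.68 ± 0.15 for syngeneic against naive (edgeR adjusted p = 0.00343).

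Klrc1, which encodes the inhibitory partner NKG2A, formed 3 separate steps. Its level was 1.91, 2.93 and 2.36 CPM in naive, 12.5, 16.1 and 18.8 CPM in syngeneic and 64, 87.5 and 95.7 CPM in allogeneic cells, with no overlap between any 2 groups. The change from naive to syngeneic was 2.75 ± 0.17 (edgeR adjusted p = 3.28e-07) and that from syngeneic to allogeneic was 2.40 ± 0.16 (edgeR adjusted p = 6.96e-07). Allogeneic against naive libraries differed by 5.15 ± 0.19, a fitted fold of 35.5 (edgeR adjusted p = 3.20e-09).

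Klrc2, which encodes the activating partner NKG2C, was also higher in both transplant groups but spread more within them. Its naive libraries were at 1.22, 2.06 and 1.05 CPM, its syngeneic ones at 5.79, 11.4 and 10.4 CPM and its allogeneic ones at 10.5, 26.1 and 25.2 CPM. Allogeneic replicate 1 lay within the syngeneic range, and the other two allogeneic libraries were above it. Klrc2 was higher than naive by 2.70 ± 0.35 in syngeneic cells (edgeR adjusted p = 9.67e-05) and by 3.87 ± 0.36 in allogeneic ones (edgeR adjusted p = 3.83e-06). The difference of allogeneic from syngeneic was 1.17 ± 0.32 (edgeR adjusted p = 0.0125), and without allogeneic replicate 3 it was 0.99 and no longer called (edgeR adjusted p = 0.0588). Because the 2 chains share long stretches such as the one printed above, the 3 Klrc genes were also summed. The sum was 3.20 to 5.01 CPM in naive, 18.4 to 29.4 CPM in syngeneic and 74.8 to 122 CPM in allogeneic cells, and was higher in allogeneic than in syngeneic ones by 2.05 ± 0.19 (edgeR adjusted p = 8.24e-06).

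Ratios between chains within a library do not depend on how libraries are scaled. Counts per kilobase of annotated exon were used for them, and each ratio is given on the log2 scale. Klrc1 to Klrd1 was -3.65, -2.72 and -3.37 in naive, -1.36, -1.41 and -0.74 in syngeneic and 0.61, 0.53 and 0.78 in allogeneic cells. On this scale, which depends on the annotated lengths, Klrc1 was below Klrd1 in every naive and syngeneic library and above it in every allogeneic one. Klrc2 to Klrd1 averaged -5.57 ± 0.70 (SD, n = 3) in naive cells, -3.54 ± 0.45 in syngeneic and -3.00 ± 0.48 in allogeneic cells, and the transplant groups overlapped. Klrc1 to Klrc2 averaged 2.32 ± 0.35 in naive and 2.37 ± 0.31 in syngeneic libraries, which overlapped, and 3.65 ± 0.46 in allogeneic libraries, which were all higher. With 3 libraries against 3, the exact 2-sided permutation test cannot go below p = 0.1, which is the value for each pair of groups that did not overlap in these ratios (0.136 after Benjamini-Hochberg adjustment over 15 comparisons). The exact p was 0.3 for Klrc2 to Klrd1 between the transplant groups and 1 for Klrc1 to Klrc2 between syngeneic and naive libraries.

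**Figure D3:**
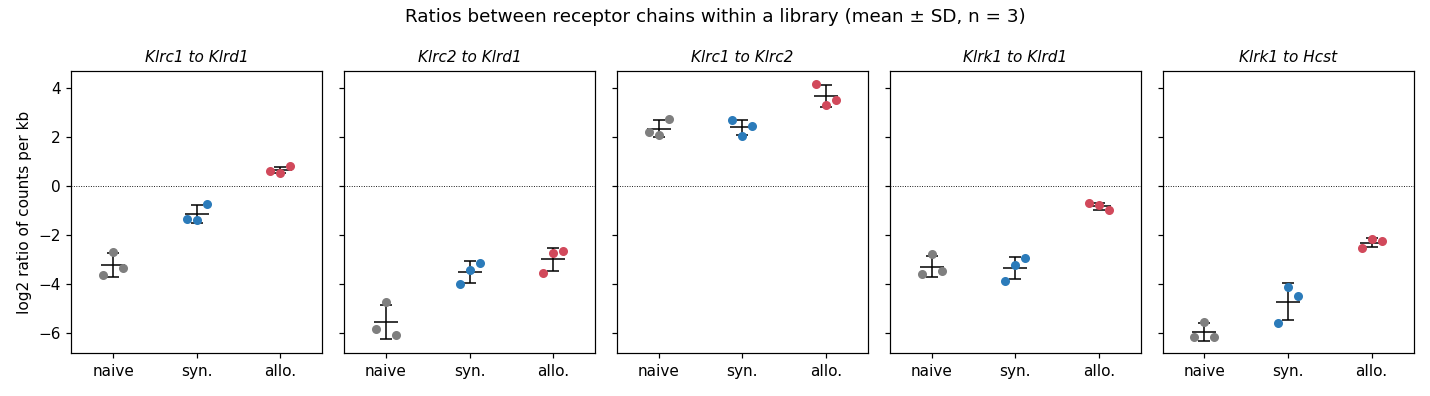
Log2 ratios of counts per kilobase between receptor chains (vertical axis, shared by the panels) in each library of the 3 groups; points are libraries, the long line is the mean and the bar the SD of 3 libraries. The dotted line marks equal counts per kilobase of annotated exon, which need not be equal transcript levels where a gene uses a short form. Klrc1 to Klrd1 lies above that line in the allogeneic libraries and below it in the other 6, and Klrk1 to Klrd1 is higher in allogeneic libraries than in naive and syngeneic ones, which overlap.

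Klrk1, which encodes the activating receptor NKG2D, was at 7.08, 9.98 and 7.82 CPM in naive, 7.87, 16.5 and 14.4 CPM in syngeneic and 92.8, 125 and 101 CPM in allogeneic cells. The allogeneic libraries were all far above the rest, and syngeneic replicate 1 lay among the naive ones. The change was 3.07 ± 0.22 for allogeneic against syngeneic (edgeR adjusted p = 9.96e-07), a fitted fold of 8.4, and 3.73 ± 0.22 for allogeneic against naive (edgeR adjusted p = 9.35e-08). The smaller difference of syngeneic from naive, 0.66 ± 0.21, was called (edgeR adjusted p = 0.0229) but did not hold under other choices. It was not called with library totals alone (0.64, edgeR adjusted p = 0.0526), with upper-quartile factors (0.55, 0.061), with limma-voom (0.62, 0.0582), or with the syngeneic and naive libraries fitted alone (0.64, 0.055). Leaving out naive replicate 1 (0.56, edgeR adjusted p = 0.0906), naive replicate 3 (0.64, 0.0671), syngeneic replicate 2 (0.46, 0.107) or syngeneic replicate 3 (0.59, 0.0795) ended the call too.

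Hcst, the adaptor that NKG2D needs at the surface, did not move in parallel with it. It stood at 51.3, 47.4 and 56.8 CPM in naive, 38.2, 29.1 and 32.4 CPM in syngeneic and 54.1, 57.3 and 48.8 CPM in allogeneic cells. Hcst was lower in syngeneic than in naive cells by -0.60 ± 0.14 (edgeR adjusted p = 0.00569) and higher in allogeneic than in syngeneic ones by 0.70 ± 0.14 (edgeR adjusted p = 0.0023), while allogeneic and naive cells were not called different (0.10, edgeR adjusted p = 0.576). The 10 T cell markers had medians of -0.61, 0.50 and -0.14 in these comparisons, so such changes were not particular to Hcst. The log2 ratio of Klrk1 to Hcst per kilobase averaged -5.97 ± 0.35 (SD, n = 3) in naive cells, -4.74 ± 0.76 in syngeneic and -2.33 ± 0.18 in allogeneic cells. On this scale the receptor was below its adaptor in every library. Klrk1 to Klrd1 averaged -3.31 ± 0.44 in naive and -3.36 ± 0.47 in syngeneic libraries (exact permutation p = 0.9), and -0.84 ± 0.15 in the allogeneic ones, which were all higher. Of the NKG2D ligand genes, Ulbp1 was at 3.4 to 4.07 CPM in naive, 10.9 to 13.8 CPM in syngeneic and 9.63 to 11 CPM in allogeneic cells. Ulbp1 was higher than naive in both transplant groups, by 1.72 ± 0.14 and 1.48 ± 0.14 (edgeR adjusted p = 3.22e-06 and 4.26e-06), and the transplant groups were not called different (-0.24, edgeR adjusted p = 0.166). Raet1d, Raet1e, H60b and H60c did not pass the filter on low counts.

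Klrb1b, which encodes the inhibitory receptor NKR-P1B, had the widest contrast of the 10 genes between groups with counts. It was nearly silent in 6 libraries, at 0.282, 0.247 and 0.253 CPM in naive and 0.0998, 0.26 and 0.378 CPM in syngeneic ones, and reached 14.8, 18.7 and 39.8 CPM in the allogeneic libraries. Allogeneic replicate 3 was the highest, and the lowest allogeneic library was still far above all 6 others. The change was 6.66 ± 0.45 for allogeneic against syngeneic, a fitted fold of 101 (edgeR adjusted p = 7.05e-07), and 6.57 ± 0.44 for allogeneic against naive, a fitted fold of 94.9 (edgeR adjusted p = 2.51e-07). Syngeneic and naive cells were not called different (-0.09 ± 0.47, edgeR adjusted p = 0.902), with a nominal 95% interval, taken as for Klrg1, from -1.00 to 0.82. Without syngeneic replicate 1 that value was 0.28 (edgeR adjusted p = 0.659), so it has no settled sign. Clec2d, which encodes its ligand Clr-b, was abundant and went the other way against naive cells: it averaged 133 CPM in naive, 80 CPM in syngeneic and 85.3 CPM in allogeneic cells. Clec2d was lower than naive by -0.70 ± 0.13 in syngeneic and by -0.60 ± 0.13 in allogeneic cells (edgeR adjusted p = 0.00101 and 0.00167), and the transplant groups were not called different (0.10, edgeR adjusted p = 0.548).

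Klrb1c, which encodes NK1.1, was present in resting cells and moved in opposite directions in the transplant groups. It stood at 8.7, 12.1 and 8.98 CPM in naive, 4.44, 7.46 and 7.55 CPM in syngeneic and 26.9, 34.2 and 31.1 CPM in allogeneic cells. No 2 groups overlapped, with the syngeneic libraries lowest and the allogeneic ones highest. Klrb1c was higher in allogeneic than in naive cells by 1.68 ± 0.18 (edgeR adjusted p = 9.23e-06) and than in syngeneic ones by 2.27 ± 0.18 (edgeR adjusted p = 2.36e-06). In syngeneic cells it was lower than in naive ones by -0.59 ± 0.17 (edgeR adjusted p = 0.018), and without naive replicate 2 this was -0.45 and not called (edgeR adjusted p = 0.0749). T cell genes fell by a like amount there: 9 of 10 markers were called lower, with a median of -0.61, beside 19.5% of all genes tested. The syngeneic minus naive log2 ratio of Klrb1c was -1.09 to Cd8a but 0.04 to the summed Cd3e, Cd3d and Cd3g counts. The decrease is thus not shown to be particular to Klrb1c. NKT cells carry NK1.1 in this strain. Their 7 markers summed to 179 to 215 CPM in naive, 151 to 174 CPM in syngeneic and 202 to 276 CPM in allogeneic cells. That sum had the order of groups seen for Klrb1c, but most of it came from Slamf6, which averaged 147, 132 and 183 CPM. The 6 markers that could be tested were split. Against naive cells 3 were higher and 3 lower in allogeneic libraries, and 3 were lower and 3 not called in syngeneic ones. Over all genes tested 31.8% were called higher and 25.9% lower in the allogeneic libraries, and 19.5% lower in the syngeneic ones. Il17rb averaged 2.83 CPM in naive, 0.969 CPM in syngeneic and 9.8 CPM in allogeneic cells, and Slamf1 averaged 21.1, 18 and 41.2 CPM. Zbtb16, the master regulator of NKT cells, averaged 10.1, 1.53 and 1.22 CPM, and Traj18, the segment of their invariant receptor, averaged 3.03, 2.04 and 1.36 CPM. The part of NKT cells in the levels of Klrb1c was not tested.

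Klrb1f, whose product binds that of Clec2i, was a weakly expressed gene that was higher in both transplant groups. Its libraries were at 0.81, 1.33 and 1.13 CPM in naive, 1.79, 2.79 and 2.87 CPM in syngeneic and 3.02, 2.8 and 2.64 CPM in allogeneic cells. All transplant libraries lay above the naive ones, and the transplant groups overlapped. Klrb1f was higher than naive by 1.22 ± 0.24 in syngeneic (edgeR adjusted p = 0.00188) and by 1.43 ± 0.24 in allogeneic cells (edgeR adjusted p = 0.000374). The difference between these was 0.22 ± 0.23 (edgeR adjusted p = 0.472), with a nominal 95% interval, taken as for Klrg1, from -0.24 to 0.68. Clec2i was called different in none of the 3 comparisons, at 17.6 to 31.0 CPM over the 9 libraries. Summed over the 5 Klrb1 genes, the NKR-P1 transcripts were at 10.1 to 14.0 CPM in naive, 6.35 to 10.9 CPM in syngeneic and 44.9 to 73.6 CPM in allogeneic cells. The sum was higher in allogeneic cells by 2.66 ± 0.20 against syngeneic (edgeR adjusted p = 1.44e-06), and syngeneic and naive cells were not called different for it (-0.29 ± 0.19, edgeR adjusted p = 0.244), so that the sum does not carry the opposite calls of Klrb1c and Klrb1f.

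Klre1 was the receptor gene with counts in all groups that was lower in allogeneic than in syngeneic cells. Its level was 0.643, 1.3 and 1 CPM in naive, 4.74, 7.46 and 7.41 CPM in syngeneic and 2.55, 3.46 and 5.14 CPM in allogeneic cells. Both transplant groups were above the naive one, and allogeneic replicate 3 lay above syngeneic replicate 1. Klre1 was higher than naive by 2.77 ± 0.30 in syngeneic (edgeR adjusted p = 2.44e-05) and by 1.96 ± 0.29 in allogeneic cells (edgeR adjusted p = 0.000137). The difference of allogeneic from syngeneic, -0.81 ± 0.27 (edgeR adjusted p = 0.0324), was not stable. It was not called with library totals alone (-0.82, edgeR adjusted p = 0.0548), nor without syngeneic replicate 2 (-0.73, 0.1), syngeneic replicate 3 (-0.72, 0.0995), allogeneic replicate 1 (-0.64, 0.106) or allogeneic replicate 2 (-0.74, 0.0934). Its partner genes behaved unlike each other: Klri1 was at 0.148 to 0.415 CPM in naive, 0.148 to 0.24 CPM in syngeneic and 0 to 0.017 CPM in allogeneic cells, whereas Klri2 was at 0.484 to 0.706, 0.56 to 1.14 and 0.818 to 1.15 CPM. Klri1 was lower in allogeneic than in syngeneic cells by -4.12 ± 0.69 (edgeR adjusted p = 0.000593), and Klri2 was not called there (0.17, edgeR adjusted p = 0.675).

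Klra8, the activating Ly49H, was rare everywhere and had no count in the allogeneic libraries. Naive libraries held 0, 6 and 5 reads, syngeneic ones 49, 78 and 51 reads (0.376, 0.723 and 0.47 CPM) and allogeneic ones 0, 0 and 0. The syngeneic libraries were above all others, and naive replicate 1 was at 0 like the allogeneic ones. Klra8 was higher in syngeneic than in naive cells by 4.07 ± 0.72 (edgeR adjusted p = 0.00155). Against the syngeneic libraries, with 178 reads in all, the allogeneic level was at least 68.2-fold lower, taking 3 counts over the group as the floor (edgeR adjusted p = 0.000246). Against the naive libraries, with 11 reads, it was at least 3.99-fold lower, with an edgeR adjusted p of 0.0264 that did not hold with limma-voom (0.0961) or without naive replicate 2 (0.0777), naive replicate 3 (0.0634) or allogeneic replicate 2 (0.0686). The floor covers counting error only, and Klra8 shares a large part of its sequence with Klra14-ps, so a read can belong to either.

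The order of the levels can be compared between genes only per length. On the scale of CPM per kilobase of annotated exon, the naive libraries were led by Klrd1 at 11.4 ± 1.44 (SD, n = 3), above Klrg1 at 3.59 and Klrb1c at 3.36, whose ranges overlapped. Klrc1 at 1.21 and Klrk1 at 1.15 overlapped next, followed by Klrb1f at 0.539, by Klre1 at 0.281 and Klrc2 at 0.248, which overlapped, and by Klrb1b at 0.117 and Klra8 at 0.0273. In syngeneic libraries Klrd1 at 17.8 ± 3.25 still led, above Klrc1 at 7.94 and Klrg1 at 4.56, with Klrb1c, Klre1, Klrk1, Klrc2 and Klrb1f between 2.19 and 1.23, each overlapping the next, then Klra8 at 0.444 and Klrb1b at 0.11. In allogeneic libraries Klrc1 led at 41.5 ± 8.29, above Klrd1 at 26.6 ± 4.87 and Klrg1 at 20.9 ± 1.77, which overlapped. Klrk1 at 14.8, Klrb1b at 11 and Klrb1c at 10.4 followed, each overlapping the next, then Klrc2 at 3.54, and Klrb1f at 1.39 and Klre1 at 1.06 overlapped. Exon lengths run over all annotated transcripts of a gene, from 1178 bases for Klra8 to 7183 for Klrk1, so a gene that uses a short form is understated on this scale. As shares of all reads on Klr genes, Klrd1 went from 22.1% to 32.8% in naive to 9.75% to 10.6% in allogeneic libraries, while Klrk1 took 15% to 17.7% in naive, 9.46% to 12.3% in syngeneic and 27.4% to 33.9% in allogeneic ones. Klrc1 took 4.05% to 5.2%, 12% to 15.3% and 23% to 26% in the same order. Reads on all 29 Klr genes summed to 47.1 to 56.3 CPM in naive, 83.2 to 133 CPM in syngeneic and 278 to 370 CPM in allogeneic cells.

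These receptors are carried mainly by CD8 cells among conventional T cells, and the 2 CD8 chain genes did not give the same account of the libraries. Cd8a averaged 426 CPM in naive, 585 CPM in syngeneic and 393 CPM in allogeneic cells, and was lower in allogeneic than in syngeneic ones by -0.57 ± 0.13 (edgeR adjusted p = 0.0038). Cd8b1 averaged 457, 498 and 461 CPM and was called in none of the 3 comparisons (allogeneic against syngeneic -0.11, edgeR adjusted p = 0.553). Cd4 averaged 450, 198 and 423 CPM. Relative to Cd8a in the same library, the log2 differences of allogeneic from syngeneic cells were larger than in the fit for the genes called higher: 2.78 for Klrg1, 3.68 for Klrk1, 1.15 for Klrd1, 2.97 for Klrc1, 1.69 for Klrc2, 7.25 for Klrb1b and 2.86 for Klrb1c. All allogeneic libraries were above all syngeneic ones for these 7 genes and for Klrb1f (0.79). Klre1 differed by -0.26 and overlapped (exact permutation p = 0.6). Of the changes of syngeneic from naive cells, those of Klrc1 (2.26), Klrc2 (2.22), Klre1 (2.31), Klra8 (4.11, with 0.5 added to each count) and Klrb1c (-1.09) separated the groups relative to Cd8a, and those of Klrg1 (-0.09), Klrk1 (0.13), Klrd1 (0.19), Klrb1b (-0.72) and Klrb1f (0.73) did not. Groups that did not overlap have an exact 2-sided p of 0.1, the smallest that 3 against 3 libraries allow, and 0.13 after Benjamini-Hochberg adjustment over 30 comparisons. The larger values between the transplant groups depend on the choice of Cd8a. With Cd8b1 in its place they were 2.30 for Klrg1, 3.20 for Klrk1, 0.67 for Klrd1, 2.49 for Klrc1, 1.21 for Klrc2, 6.77 for Klrb1b and 2.38 for Klrb1c, and Klrc2 and Klrb1f (0.31) no longer separated these groups, while Klrd1 (0.53) now separated syngeneic from naive libraries. With the summed Cd3e, Cd3d and Cd3g counts in place of Cd8a, Klrd1 (0.02), Klrc2 (0.56) and Klrb1f (-0.34) did not separate the transplant groups and Klre1 (-1.39) did. Between syngeneic and naive libraries, that choice gave separation for Klrg1 (1.05), Klrk1 (1.27), Klrd1 (1.33) and Klrb1f (1.87) and ended it for Klrb1c (0.04).

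The remaining Klr genes went another way in the allogeneic libraries. Of the 19 in the table, 16 could be tested, and of these 11 were lower in allogeneic than in syngeneic cells and 5 were not called, with a median log2 fold change of -2.86. Among those not called, Klrg2 (2.19, edgeR adjusted p = 0.0683) and Klrc3 (1.27, 0.079) had the highest values. Against naive cells 5 were higher and 9 lower in allogeneic libraries, with a median of -2.25 as fitted and of -1.71 with the genes without counts at their bound. In syngeneic against naive cells 9 were higher and 1 was lower, with a median of 1.82. Over all genes tested 20.7% were called lower between the transplant groups. The shares higher and lower were 31.8% and 25.9% in allogeneic and 22.4% and 19.5% in syngeneic against naive cells. Most of them are Ly49 genes of the Klra group, which encode receptors for classical class I molecules. Among those with counts in all 3 groups, the pseudogene Klra13-ps had the largest change between the transplant groups, at 0.73, 0.882 and 0.732 CPM in naive, 7.11, 14.8 and 14.3 CPM in syngeneic and 0.0339, 0.102 and 0.0289 CPM in allogeneic cells. Its change was -7.60 ± 0.42 for allogeneic against syngeneic (edgeR adjusted p = 1.44e-07). Klra10, with 101 reads in the syngeneic libraries and none in the allogeneic ones, was at least 38.7-fold lower there, with the floor of 3 counts over the group. Klra6 was at 1.29 to 1.79, 3.57 to 5.49 and 0.0192 to 0.119 CPM in the same order of groups (-5.97 ± 0.43, edgeR adjusted p = 1.10e-06). Klra3 (-2.90 ± 0.34) and Klra7 (-2.83 ± 0.30) were lower too, with edgeR adjusted p of 5.08e-05 and 2.06e-05. Reads can be shared among these copies, and the sum of all 14 Klra genes had the same order: 5.63 to 6.63 CPM in naive, 18.8 to 34.6 CPM in syngeneic and 1.58 to 1.98 CPM in allogeneic cells. It was lower in allogeneic cells by -3.99 ± 0.22 against syngeneic (edgeR adjusted p = 1.37e-07) and by -1.74 ± 0.20 against naive ones (edgeR adjusted p = 2.29e-05), and higher in syngeneic than in naive cells by 2.25 ± 0.20 (edgeR adjusted p = 5.76e-06). In allogeneic libraries the Klra sum thus lay below its naive level while the Klrc and Klrb1 sums lay above theirs.

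**Figure D4:**
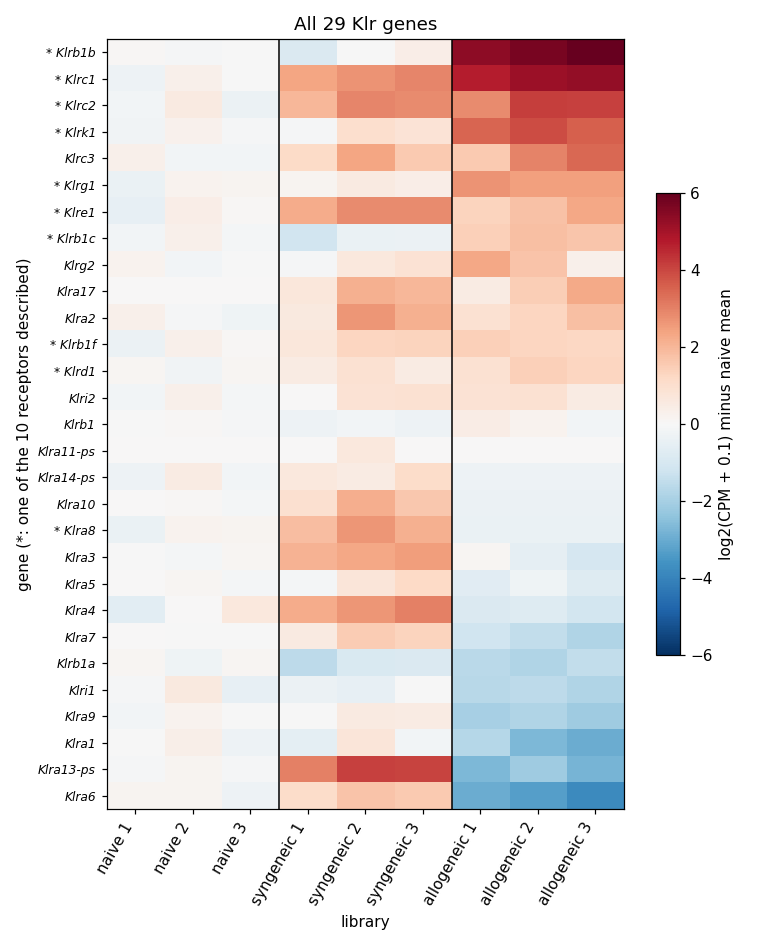
Level of all 29 Klr genes (rows) in the 9 libraries (columns), as log2(CPM + 0.1) minus the mean of the naive libraries; red is above and blue below the naive mean, and an asterisk marks the 10 receptors described. Rows are ordered by their mean value in allogeneic libraries. Klrb1b, Klrc1, Klrc2 and Klrk1 lead in the allogeneic columns, and Klra13-ps and Klra6, near the bottom, are above naive in syngeneic and below naive in allogeneic libraries.

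The genes through which these receptors signal were taken from a list of 20 adaptors and proximal signalling genes, all of which were tested. In allogeneic against syngeneic cells 13 were higher, 1 was lower and 6 were not called, with a median of 0.40. Over all genes tested 24.3% were called higher and 20.7% lower there. In allogeneic against naive cells the counts were 13, 2 and 5 with a median of 0.44, beside 31.8% and 25.9% of all genes. In syngeneic against naive cells they were 5, 5 and 10 with a median of -0.04. The shares of all genes there were 22.4% and 19.5%, close to those of the list. The highest value between the transplant groups was that of Ptpn11, which encodes the phosphatase SHP-2 recruited by inhibitory receptors: it averaged 125 CPM in naive, 122 CPM in syngeneic and 338 CPM in allogeneic cells (1.48 ± 0.07, edgeR adjusted p = 7.97e-08). Ptpn6, which encodes the related SHP-1, differed less, at 239, 273 and 346 CPM (0.35 ± 0.11, edgeR adjusted p = 0.0205). Zap70, the kinase of the T cell receptor, was at 251, 220 and 433 CPM (0.99 ± 0.11, edgeR adjusted p = 2.56e-05). Pik3cd, a catalytic subunit of the kinase downstream of DAP10, was the gene of the list that was lower (-0.44 ± 0.13, edgeR adjusted p = 0.0166). Tyrobp, the DAP12 adaptor of activating Ly49 and NKG2C receptors, was at 0.622 to 0.741 CPM in naive, 4.5 to 16.7 CPM in syngeneic and 5.72 to 8.15 CPM in allogeneic cells, and the transplant groups were not called different (-0.68, edgeR adjusted p = 0.136). Summed macrophage and monocyte markers, from cells that also make Tyrobp, were 3.05 to 4.08 CPM in naive, 48.2 to 182 CPM in syngeneic and 48 to 84.2 CPM in allogeneic cells, and their part in the Tyrobp level was not tested.

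Of the 14 ligand genes listed, 6 could be tested in these sorted cells. In allogeneic against syngeneic cells 2 were higher (Cdh1 and H2-T23) and 4 not called, beside 24.3% of all genes tested called higher. Against naive cells the counts higher and lower were 2 and 1 in allogeneic and 1 and 2 in syngeneic libraries. The shares of all genes were 31.8% and 25.9% in allogeneic and 22.4% and 19.5% in syngeneic libraries. H2-T23, which encodes Qa-1, the ligand of the NKG2A and NKG2C heterodimers, was at 218, 198 and 235 CPM in naive, 181, 146 and 162 CPM in syngeneic and 194, 209 and 228 CPM in allogeneic cells. It was higher in allogeneic than in syngeneic cells by 0.38 ± 0.12 (edgeR adjusted p = 0.0224) and lower in syngeneic than in naive cells by -0.37 ± 0.12 (edgeR adjusted p = 0.0245). Clec2h, the other gene of the list that passed the filter, was called in none of the comparisons.

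Genes that are known to accompany KLRG1 on effector CD8 cells were counted from a list of 12. Of these 10 were higher in allogeneic than in syngeneic cells and 2 were not called, with a median of 2.55. All 12 were higher than naive in allogeneic cells (median 2.96), and 10 were higher than naive in syngeneic cells (median 1.31). Over all genes tested 24.3%, 31.8% and 22.4% were called higher in these comparisons. Gzma, a granzyme of killer cells, went from 2.47 to 4.82 CPM in naive and 15.0 to 25.4 CPM in syngeneic to 1011 to 1295 CPM in allogeneic libraries (5.84 ± 0.28 between the transplant groups, edgeR adjusted p = 6.45e-08). Zeb2, a repressor tied to terminal effector cells, was not called between the transplant groups (-0.49 ± 0.37, edgeR adjusted p = 0.302) although Klrg1 differed there. Zeb2 was at 6.62, 25.7 and 23.3 CPM in syngeneic and 11.5, 12.6 and 14.5 CPM in allogeneic cells. In the same libraries the summed macrophage and monocyte markers were 48.2, 182 and 179 CPM in syngeneic and 48, 54.6 and 84.2 CPM in allogeneic cells. The part of such cells in the Zeb2 level was not tested. Of 12 genes of memory-precursor and naive CD8 cells, 3 were higher and 8 lower in allogeneic than in syngeneic cells (median -0.98). Against naive cells 1 was higher and 8 lower in allogeneic libraries, and 3 were higher and 9 lower in syngeneic ones. Over all genes tested 20.7%, 25.9% and 19.5% were called lower in these comparisons. Ccr7, the homing receptor for lymph nodes, was at 454 to 511 CPM in naive, 175 to 233 CPM in syngeneic and 9.63 to 15.1 CPM in allogeneic cells.

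Among 13 known regulators of Klr genes in lymphocytes, 8 were higher and 3 lower in allogeneic than in syngeneic cells. Against naive cells 9 were higher and 3 lower in allogeneic libraries, and 7 were higher and 4 lower in syngeneic ones. Over all genes tested 24.3%, 31.8% and 22.4% were called higher in these comparisons, and 20.7%, 25.9% and 19.5% lower. Prdm1, which encodes BLIMP-1, was at 7.74 to 11.4 CPM in syngeneic and 59.2 to 79.9 CPM in allogeneic cells (2.87 ± 0.13, edgeR adjusted p = 4.92e-08). Nfil3, a factor needed for NK cell development, was at 4.57 to 5.01 CPM in naive, 6.96 to 10.2 CPM in syngeneic and 48.1 to 55.8 CPM in allogeneic cells (2.61 ± 0.14, edgeR adjusted p = 1.07e-07). Eomes, a T-box factor of NK and memory CD8 cells, had another order, at 54.9 to 58.0 CPM in naive, 140 to 167 CPM in syngeneic and 57.1 to 74.8 CPM in allogeneic cells. Eomes was lower in allogeneic than in syngeneic cells by -1.23 ± 0.14 (edgeR adjusted p = 3.75e-05) and was not called between allogeneic and naive cells (0.29, edgeR adjusted p = 0.0898). Bach2, a repressor of effector genes, was at 215 to 256 CPM in naive, 92.3 to 111 CPM in syngeneic and 7.75 to 15.2 CPM in allogeneic cells (-3.10 ± 0.18, edgeR adjusted p = 2.26e-07).

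The genes whose pattern over the 9 libraries was most like each receptor's were found by the root mean square difference of centred log2 CPM, among 12891 genes with a mean of at least 1 CPM. This is a description of 9 points that share group, depth and cell content. For Klrg1 the nearest genes were Kdelc2 (0.16), Trip10 (0.18) and Casp4 (0.19), and for Klrk1 they were Ptprj (0.19), Entpd1 (0.20) and Ahr (0.20). Klrd1 was nearest to Sirt3 (0.16), Tcirg1 (0.16) and Sntb2 (0.17), Klrc1 to Bhlhe40 (0.21), Plek (0.24) and Bspry (0.26), and Klrc2 to Olfm1 (0.37), Runx2 (0.38) and Itgam (0.38). The nearest genes to Klrb1c were Il2ra (0.16), Exph5 (0.22) and Rora (0.23), and those to Klrb1f were Grn (0.16), H2-DMb2 (0.16) and Unc93b1 (0.18). Klre1 was nearest to Arhgef39 (0.31), BC035044 (0.32) and Brca2 (0.33). Klrb1b and Klra8 lay farther from every other gene: the smallest differences were 0.72 (Dsp) for Klrb1b and 0.65 (Drc1) for Klra8. No receptor was among the 3 nearest genes of another receptor.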

How the data were processed

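T cells of 9 libraries (3 naive, 3 syngeneic, 3 allogeneic) were profiled by RNA-seq. Per the labels' protocols, libraries were made from 100 ng of total RNA with a stranded kit that removes ribosomal RNA. The authors deposited raw read counts per Ensembl gene in 1 table, for which the submitters' processing notes name HTSeq 0.6.1, TopHat2 2.0.13, FastQC 0.11.3, Bowtie2 2.2.1 and GRCm38. Not given in the sources used here are the annotation release, the strand setting and how reads with several alignments were treated. Replicate and group came from the labels; the strain tag, which names the syngeneic recipient strain for all 9 libraries, was not used.

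From these counts, CPM was computed by column total, and 29014 of 29229 identifiers were matched to symbols. The main test was edgeR 4.0.16 (quasi-likelihood, TMM scaling, filterByExpr, group as the only term, all 9 libraries), with Benjamini-Hochberg adjustment over 19609 genes and a threshold of 0.05. The common biological coefficient of variation was 0.193. Its steps were tested on simulated data. DESeq2 1.42.0, limma-voom (limma 3.58.1), other scalings and filters, 2-group fits, a replicate block, summed subfamilies and leaving out each library were alternatives. No 2 libraries of a group were alike within sampling noise (chi-square per degree of freedom from 22.5 to 362). Ratios had 0.5 added to counts and were compared by exact 2-sided permutation tests. Lengths, coding sequences and positions came from GENCODE M21 (GRCm38), promoters from RefSeq (GRCm38.p6).

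The receptors and the lists were chosen with earlier results of these data known. Named were all 10 receptors, any other Klr, adaptor or ligand gene, the called genes at the ends of the other lists, and the 3 nearest genes of each receptor. Zeb2, Zbtb16 and Slamf6 were also given where their values bear on a receptor.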

Additional observations from a re-analysis of the deposited data

Results flagged for a closer look

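For 2 receptor genes the changes from naive cells had opposite signs in the transplant groups, and the difference between them, which is the contrast of allogeneic with syngeneic libraries, passed the test. Klrb1c was higher than naive by 1.68 in allogeneic libraries and lower by -0.59 in syngeneic ones, a difference of 2.27 ± 0.18 (SE, edgeR adjusted p = 2.36e-06). Relative to the summed Cd3 genes, its syngeneic minus naive log2 ratio was 0.04, so the negative sign depends on the scale. Klra8 had fitted changes of -4.94 in allogeneic and 4.07 in syngeneic libraries, a difference of -9.01 (edgeR adjusted p = 0.000246), and because it had no count in allogeneic libraries the fitted values that involve them are no bounds. Both pairs of changes share the naive libraries.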

How the results depend on the processing

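The counts of receptor genes called higher (7, 9 and 7 for allogeneic against syngeneic, allogeneic against naive and syngeneic against naive) stayed within 1.5 times under all the alternatives that could be fitted. The small counts called lower moved. For allogeneic against syngeneic (2 genes) the count was 1 with library totals and 1 with a filter of at least 1 CPM in 3 libraries, which removes Klra8, and 1 to 2 on leaving out 1 library. For allogeneic against naive (1 gene) it was 0 with limma-voom, 0 with that filter, 0 with only the 2 groups fitted, where Klra8 could not be fitted, and 0 to 1 on leaving out 1 library, and for syngeneic against naive (1 gene) it was 0 to 1 on leaving out 1 library. Signs changed for Klrb1b (0.28 without syngeneic replicate 1, -0.52 to 0.28 on leaving out 1 library) and Klrb1f (-0.29 with the Klrb1 genes summed) in syngeneic against naive cells. With the Cd3 genes in place of Cd8a, the syngeneic minus naive log2 ratios of Klrg1 (1.05), Klrb1b (0.41) and Klrb1c (0.04) and the allogeneic minus syngeneic one of Klrb1f (-0.34) changed sign. With the replicate number as a block the calls were 7 higher and 2 lower, 9 higher and 1 lower, and 7 higher and 1 lower, and no receptor's call changed. Same-numbered libraries correlated at -0.12 to 0.26 in their deviations from the group means, so the numbers do not pair the samples. Of the other results for single genes and ratios, 853 stayed the same, and 19 ratios moved by more than their spread, the larger SD of the compared groups. A gene stayed the same where its direction and call held, and a ratio where it moved by no more than that spread. A small ratio could thus still change sign. The syngeneic minus naive ratio of Klrg1 was -0.09 with Cd8a and 0.25 with Cd8b1. Among single genes, 20 results lost the call and 1 gained it (Klrb1f, allogeneic against syngeneic, 2.66 with the Klrb1 genes summed). The calls lost are given beside the genes. Depth limits Klra8 most, with 11 reads in the naive and 178 in the syngeneic libraries.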

Other observations

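Other cell types' markers also differed between the groups. Summed neutrophil markers were at 1.41 to 4.94 CPM in naive, 318 to 1075 CPM in syngeneic and 493 to 871 CPM in allogeneic libraries. Summed B cell markers were at 15.6 to 20.2, 81 to 107 and 35.6 to 46.2 CPM in the same order, and mast cell and basophil markers at 0.854 to 0.908, 4.14 to 13.7 and 25.3 to 38.5 CPM. Markers of regulatory T cells summed to 215 to 256 CPM in naive, 104 to 171 CPM in syngeneic and 296 to 366 CPM in allogeneic libraries. Of the 4 markers, 2 were higher (Il2ra and Ctla4) and 2 lower (Foxp3 and Ikzf2) in allogeneic than in naive cells. Over all genes tested 31.8% were called higher and 25.9% lower there. Foxp3 averaged 61.1 CPM in naive, 26.9 CPM in syngeneic and 27.7 CPM in allogeneic cells, and Il2ra averaged 57, 41.3 and 186 CPM. The 10 T cell markers summed to 4418 to 4925 CPM in naive, 3070 to 3768 CPM in syngeneic and 4574 to 4878 CPM in allogeneic libraries. Single NK cell genes did not move alike: Gzmc was at 0.783 to 0.95 CPM in syngeneic and 4.74 to 15.9 CPM in allogeneic libraries, Cd244a at 1.37 to 3.07 and 8.2 to 17.1 CPM, and Styk1, at 0.637 to 2.11 CPM over the 9 libraries, was called in none of the comparisons.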
